A study of Mus musculus with 12 samples.

Results

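Ribosome biogenesis genes and the genes of RNA polymerase I were followed in mouse blastocysts in which p38-MAPK was inhibited. The group comprised 51 protein-coding genes, chosen by name for their part in ribosomal RNA (rRNA) transcription, rRNA processing, and subunit assembly, together with Mybbp1a, which the study took up as a candidate p38-MAPK effector. All 51 were found among the 34245 genes measured. Each of 12 poly(A) RNA libraries was made from a pool of 30 whole embryos from C57Bl6 x CBA/W F1 crosses, taken at the 2-cell stage (E1.5) and grown to E3.5 in KSOM medium with amino acids. From E3.5, control embryos received the solvent DMSO (0.2-0.5% by volume) and the others 20 µM SB220025, a small-molecule p38-MAPK inhibitor (p38-MAPKi), for 4, 7, or 10 h (written + 4 h, + 7 h, and + 10 h), with 2 libraries in each of the 6 groups. Whole embryos were treated and pooled, so the outer trophectoderm and both inner cell mass lineages contributed to each value. In such pools fewer cells of a type and less RNA per cell cannot be told apart, and without added standards a change of all mRNA together cannot be seen.

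Ribosomes are built in the nucleolus. RNA polymerase I, guided to the rRNA genes by UBF (Ubtf) and brought there by RRN3, copies a long precursor that the small subunit (SSU) processome, small nucleolar ribonucleoproteins (snoRNPs), helicases, and methyltransferases fold, modify, and cut. Box C/D snoRNPs guide methylation of the ribose, and box H/ACA snoRNPs guide the conversion of uridine to pseudouridine. The blastocyst, which has to make its own ribosomes in place of those left by the egg, is known for its active nucleoli. The libraries measured the mRNAs of these proteins, not rRNA itself or its precursor.

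Library depth lay between 11242313 and 24457313 reads, lowest in p38-MAPKi replicate 1 at + 7 h, which had reads on 14063 genes against 16405 to 17707 in the other libraries. DMSO replicate 1 at + 4 h stood apart by a locus related to 18S rRNA (Gm42418, named after its values were seen), at 25350 RPKM against 2004 to 7353 in the others. The largest effects at + 4 h and + 7 h are given without these libraries further below. Markers of the 3 blastocyst lineages were present, whereas 5 cumulus cell and 5 blood markers summed to at most 0.889 and 1.11 RPKM in any library, with no read on 3 or 4 of the 5 cumulus markers and 2 or 3 of the 5 blood markers in each group. The summed level of 6 primitive endoderm markers was 116 to 122 RPKM with p38-MAPKi at + 7 h against 174 to 189 with DMSO, and its part in the results below was not tested. At + 4 h the primitive endoderm sum was 130 to 174 RPKM with p38-MAPKi against 142 to 171. At + 10 h it was 180 to 185 against 179 to 182. With p38-MAPKi, the 6 epiblast markers summed to 608 to 671, 637 to 674, and 512 to 539 RPKM at the 3 times. With DMSO they summed to 534 to 643, 588 to 637, and 563 to 564. The 6 trophectoderm markers summed to 1890 to 1920, 2030 to 2180, and 2150 to 2440 RPKM with p38-MAPKi. With DMSO these summed to 1720 to 1870, 1770 to 2370, and 2300 to 2530. Of these, Cdx2 was lower with p38-MAPKi without overlap at all 3 times, as were 4.29% of all genes, while the trophectoderm sum was higher at + 4 h. At + 10 h Cdx2 measured 176.8 and 175.8 RPKM against 203.7 and 207.6. Gata4, of the primitive endoderm list, was lower without overlap at + 7 h and + 10 h, at 1.84 and 1.85 RPKM against 3.86 and 2.34 at + 10 h. Nanog, of the epiblast list, overlapped the control at every time. The other markers are not given singly. The part of these lineages in the results was not tested either. Values are the deposited RPKM (read counts divided by transcript length and by sequencing depth). Effects are log2 fold changes from limma, with p-values adjusted over all genes tested and called below 0.05. All 51 members had at least 1 RPKM in at least 2 libraries of every comparison, and the lowest read count of a member in a library was 416.

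The members differed widely in level. Per kilobase, the highest mean over the 12 libraries was that of Npm1 (nucleophosmin, an abundant nucleolar chaperone), followed by Nhp2 (a core protein of box H/ACA snoRNPs), and the lowest were those of Wdr12 (large subunit assembly) and Polr1a (the catalytic subunit of RNA polymerase I). Npm1 averaged 447 RPKM, Nhp2 309.6, Polr1a 12.3, and Wdr12 4.63 (n = 12 libraries each). The lengths behind these values merge the transcripts of a gene, up to 11955 bases for Wdr12 and 11871 for Polr1a, which lowers the RPKM of a gene whose embryo transcript is shorter. Npm1 has processed copies in the genome, and how reads that map to several places were handled is not given in the sources used here, so its level is less certain than the others. Over the 12 libraries Npm1 ran from 319 to 579 RPKM and Nhp2 from 192 to 475, so these neighbours in the order overlapped. Polr1a, at 7.00 to 15.3 RPKM, overlapped the next gene, Utp20, at 9.66 to 16.0, while Wdr12, at 3.98 to 5.54, lay below both.

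Of the 51 genes, 1 (Ubtf) rose with p38-MAPKi, in the test over all times, and no member was called at a single time. The effects ran from -0.28 to 0.51 at + 4 h, from -0.69 to 0.70 at + 7 h, and from -0.31 to 0.34 at + 10 h. By limma, 0 of 51 were called at + 4 h, where 0.909% of all tested genes were called, 0 of 51 at + 7 h against 2.13%, and 0 of 51 at + 10 h against 0.803%. The effect common to the 3 times was called for 1 member, Ubtf, where 2.67% of all tested genes were called. The counts at an unadjusted p under 0.05 were 3 members higher and 0 lower at + 4 h (all genes, 6.39% and 3.03%), 5 higher and 5 lower at + 7 h (10.7% and 17.7%), and 2 higher and 12 lower at + 10 h (8.26% and 11.6%). With voom on recovered reads, 0, 2 (Nhp2 and Dkc1, both higher), and 1 (Ubtf, higher) were called. The 95% intervals of all 51 effects stayed within 1 log2 unit at + 4 h and within 0.5 at + 10 h, and those of 46 members stayed within 1 at + 7 h.

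**Figure D1:**
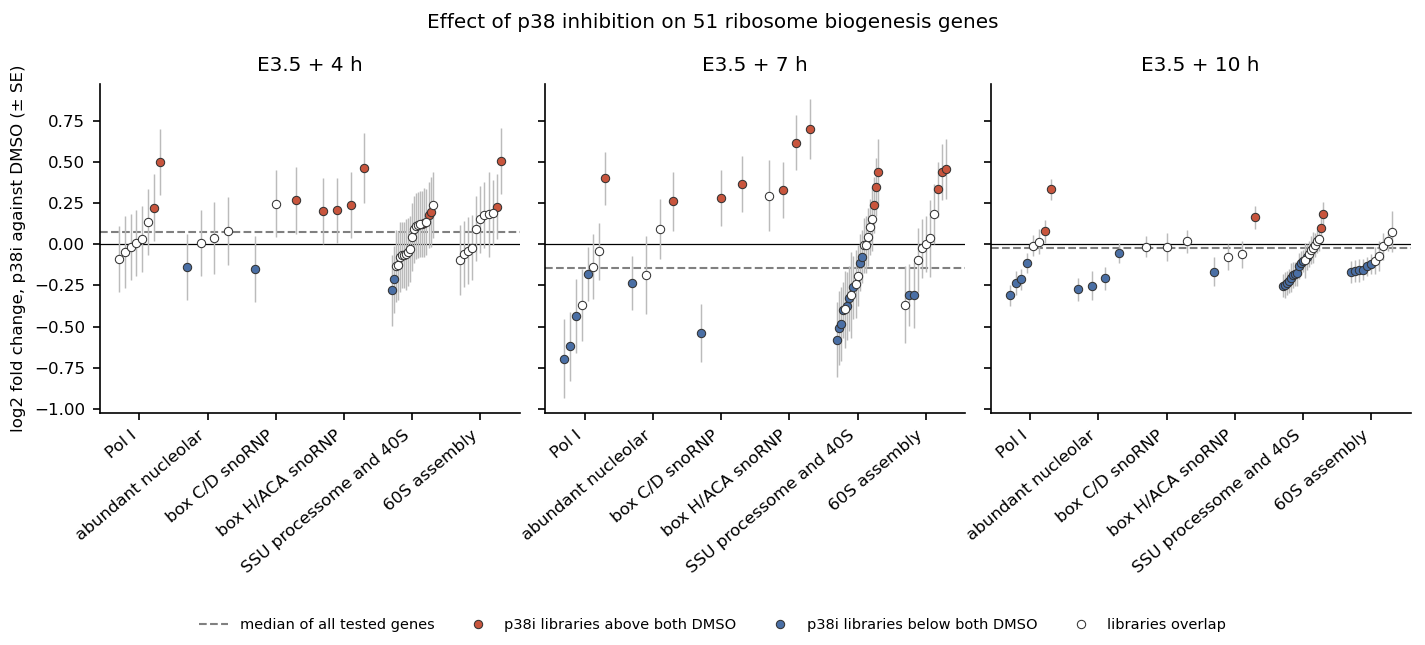
Log2 fold change of p38-MAPKi against DMSO (vertical axis, with the SE) for each of the 51 genes, grouped by role and ordered by value within a role, at each time. Filled points are genes whose 2 p38-MAPKi libraries lay outside the range of the 2 DMSO libraries, and the dashed line is the median of all tested genes; the spread of values is widest at + 7 h, and 40 of 51 points are below 0 at + 10 h.

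At + 4 h, 32 effects were above 0 and 19 below, with a median of 0.092 beside 0.075 for all tested genes. In 13 members (25.5%) both p38-MAPKi libraries were above both DMSO libraries, as in 26.8% of all genes, and in 4 (7.8%) both were below, as in 13.7%. At + 7 h, 21 were above 0 and 30 below, with a median of -0.074 beside -0.141 for all genes, 13 (25.5%) not overlapping and higher, as in 23.0% of all genes, and 17 (33.3%) lower, as in 38.7%. The counts of members thus lay near the background at both times. At + 10 h, 11 were above 0 and 40 below, with a median of -0.099 beside -0.023, and 27 members (52.9%) were lower without overlap, beside 29.6% of all genes, and 5 (9.8%) higher, beside 22.6%. Quantile normalization gave 20 above and 31 below at + 4 h, 18 and 33 at + 7 h, and 19 and 32 at + 10 h, and median centring gave 30 and 21, 32 and 19, and 11 and 40, with the median of all genes at + 7 h moved from -0.141 to 0.054. Without DMSO replicate 1 at + 4 h, 26 were above and 25 below, without DMSO replicate 2, 42 and 9, and without p38-MAPKi replicate 1 at + 7 h, 24 above and 27 below. When 1 of the 4 libraries was left out, between 35 and 39 of 51 effects were below 0 at + 10 h, not always of the same genes. At that time the summed epiblast markers were lower too, while the sums of the primitive endoderm and trophectoderm markers overlapped the control. Of the markers given singly, Cdx2 and Gata4 were lower without overlap and Nanog overlapped the control. The part of these markers was not tested.

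**Figure D2:**
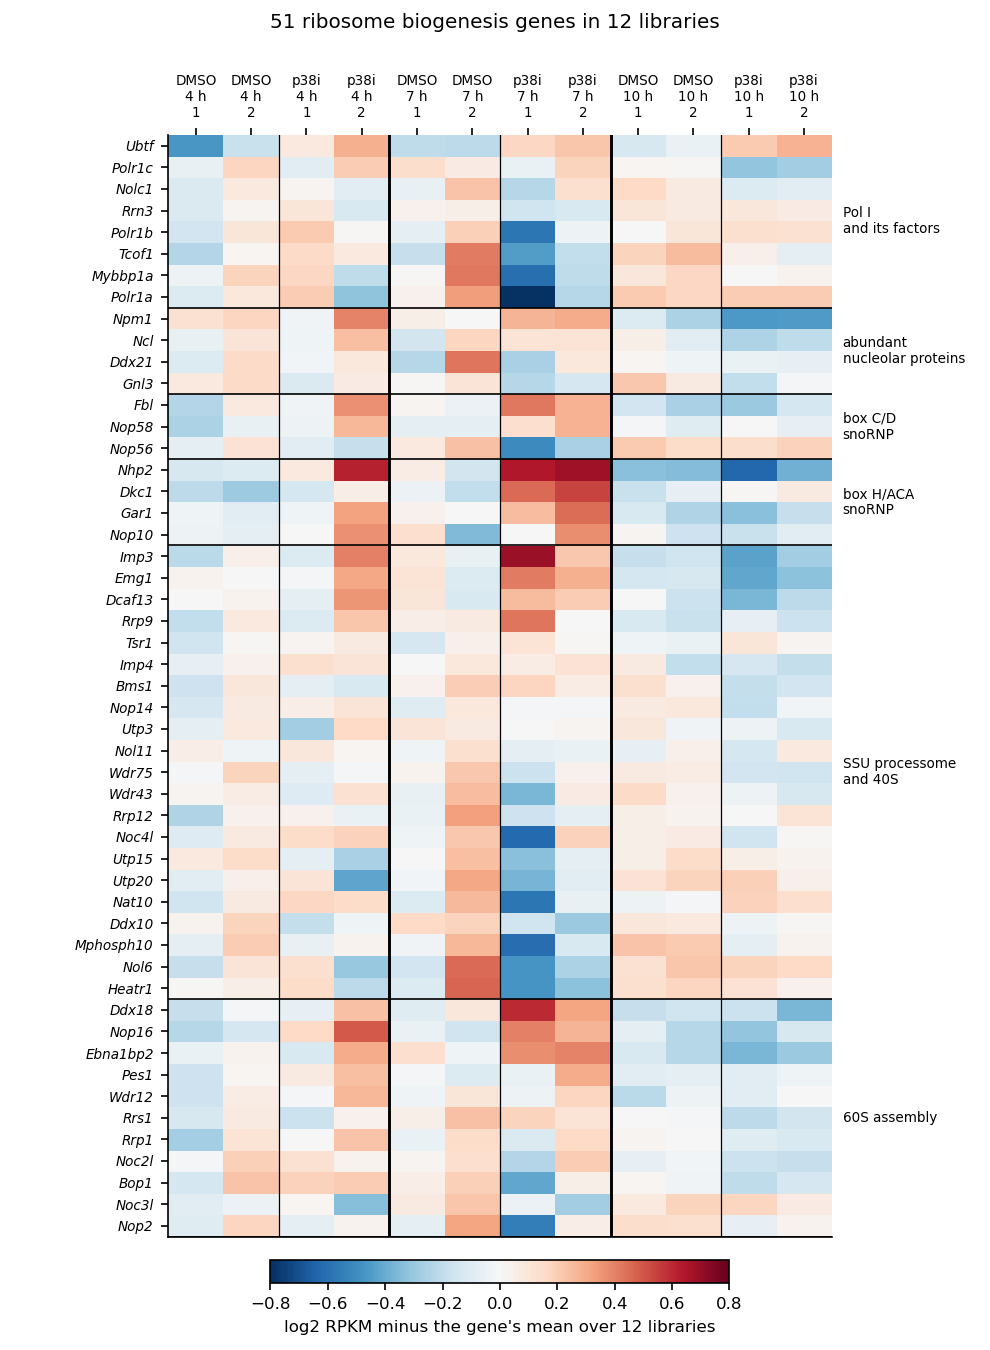
Log2 RPKM of each gene (rows, grouped by role and ordered by the effect at + 7 h) in each library (columns) minus the mean of the gene over the 12 libraries, with colours limited to 0.8 in either direction. Nhp2 and Dkc1 are high in both p38-MAPKi libraries at + 7 h, Polr1a and Mybbp1a are low there and lowest in replicate 1, and Npm1 is low in both p38-MAPKi libraries at + 10 h.

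Among the 8 genes of RNA polymerase I and its factors, Ubtf stood on its own. UBF binds along the rRNA genes and keeps them open for transcription. Ubtf lies at chr11:102304560-102319742 (GRCm38, minus strand). With DMSO it measured 44.3 and 54.1 RPKM at + 4 h, 53.0 and 52.9 at + 7 h, and 55.8 and 58.9 at + 10 h. With p38-MAPKi it measured 64.5 and 74.2 RPKM at + 4 h, 68.5 and 71.3 at + 7 h, and 70.7 and 74.1 at + 10 h. Every p38-MAPKi library was above every DMSO library, and Ubtf rose under p38-MAPKi over all times by 0.41 ± 0.08 on the log2 scale (SE, n = 6 libraries a group, limma, adjusted p = 0.0196), 1.33 times the control. At the single times the effect was 0.50 ± 0.20 (SE, n = 2 libraries a group, adjusted p = 0.303 in limma), 0.40 (SE 0.16, adjusted p = 0.151 in limma), and 0.34 (SE 0.07, adjusted p = 0.0763 in limma), none of them called. The common effect was no longer called without DMSO replicate 1 at + 7 h (0.41, adjusted p = 0.0526 in limma) or without p38-MAPKi replicate 2 at + 7 h (0.41, adjusted p = 0.0582 in limma), and it was called in the other 20 alternatives, with values from 0.34 to 0.51.

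**Figure D3:**
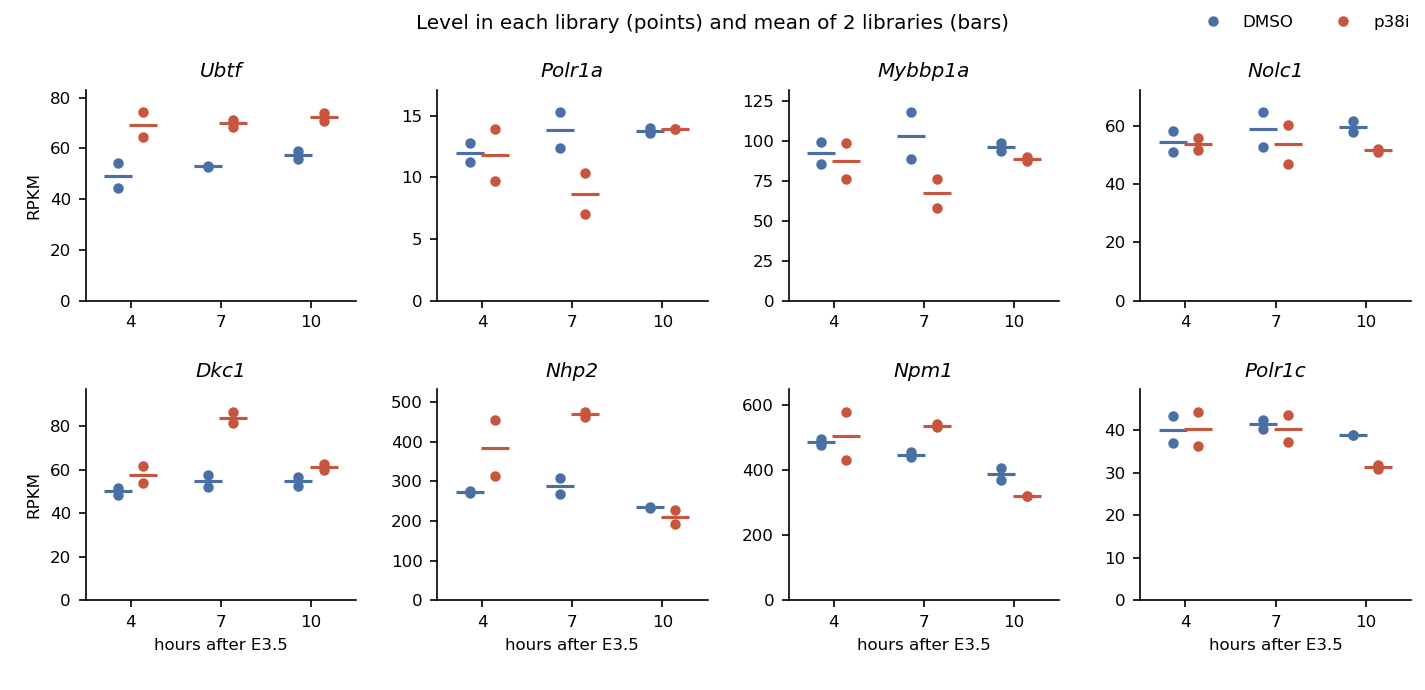
RPKM (vertical axis, from 0) of 8 genes in each library (points) at 4, 7, and 10 h after E3.5 (horizontal axis), with the mean of 2 libraries as a short bar. Ubtf with p38-MAPKi sits at 64.5 to 74.2, above all DMSO libraries at 44.3 to 58.9, while Dkc1 and Nhp2 are furthest from the control at + 7 h.

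The enzyme's own subunits took other courses. Polr1a (chr6:71909053-71984935, plus strand) measured 11.2 and 12.8 RPKM at + 4 h, 12.4 and 15.3 at + 7 h, and 13.98 and 13.6 at + 10 h with DMSO. Under p38-MAPKi the libraries gave 13.9 and 9.69 RPKM at + 4 h, 7.00 and 10.3 at + 7 h, and 13.9 and 13.9 at + 10 h. The + 7 h libraries did not overlap, with the deeper p38-MAPKi library the nearer to the control, and the effect was -0.69 ± 0.24 (SE, n = 2 libraries a group, adjusted p = 0.105 in limma). The groups overlapped at + 4 h and + 10 h (-0.05 and 0.02). Without the shallow replicate 1 with p38-MAPKi the + 7 h effect was -0.41 (adjusted p = 0.295 in limma), and with the length trend removed -0.295. It was called without replicate 2 (-0.98, adjusted p = 0.00647 in limma), with a single fit over 12 libraries (adjusted p = 0.0379), and with the replicate number as a block (adjusted p = 0.028). Polr1b, the second largest subunit, had 0.14, -0.37, and 0.08 at the 3 times, with 1 time (+ 10 h) without overlap. Polr1c, a subunit shared with RNA polymerase III (chr17:46243920-46248054, minus strand), measured 37.0 and 43.3 RPKM at + 4 h, 42.6 and 40.3 at + 7 h, and 39.0 and 38.8 at + 10 h with DMSO. After inhibition its level was 36.4 and 44.4 RPKM at + 4 h, 37.2 and 43.6 at + 7 h, and 31.0 and 31.8 at + 10 h. Its 2 p38-MAPKi libraries at + 10 h were nearly equal and well below both controls, and this was the lowest effect among the members at that time, -0.31 (SE 0.06, adjusted p = 0.0851 in limma). Rrn3, the initiation factor that links the polymerase to the rRNA promoter, had effects of 0.03, -0.18, and -0.01, lower without overlap at + 7 h, and levels of 36.4 to 43.6 RPKM in all 12 libraries.

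Mybbp1a (chr11:72441355-72451768, plus strand) encodes a nucleolar protein that takes part in rRNA transcription and processing. With DMSO it measured 85.4 and 99.3 RPKM at + 4 h, 88.7 and 118 at + 7 h, and 93.6 and 98.5 at + 10 h. The p38-MAPKi libraries held 98.5 and 76.2 RPKM at + 4 h, 58.0 and 76.3 at + 7 h, and 87.6 and 89.7 at + 10 h. The groups overlapped at + 4 h (-0.09), and both p38-MAPKi libraries were below both controls at + 7 h and at + 10 h. At + 7 h the effect was -0.62 ± 0.21 (SE, n = 2 libraries a group, adjusted p = 0.103 in limma), with a 95% interval of -1.10 to -0.14, and at + 10 h it was -0.12 (SE 0.06, adjusted p = 0.352 in limma). Neither was called, nor was the common effect of -0.27 (SE 0.12, adjusted p = 0.181 in limma). Without p38-MAPKi replicate 2 at + 7 h the + 7 h effect was called (-0.82, adjusted p = 0.0255 in limma), as it was with a single fit over 12 libraries (adjusted p = 0.0314) and with the replicate number as a block (adjusted p = 0.019). Without p38-MAPKi replicate 1 it was -0.42 (adjusted p = 0.337 in limma) and without DMSO replicate 2 -0.415 (adjusted p = 0.565 in limma). The + 10 h effect was -0.07 with quantile normalization and with voom.

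Nolc1 encodes a phosphoprotein that carries snoRNPs and partners with treacle, the product of Tcof1, a nucleolar cofactor of rRNA transcription. With DMSO, Nolc1 measured 50.9 and 58.3 RPKM at + 4 h, 52.9 and 64.7 at + 7 h, and 61.7 and 57.9 at + 10 h. With p38-MAPKi it measured 56.0 and 51.8 RPKM at + 4 h, 47.0 and 60.4 at + 7 h, and 51.2 and 52.0 at + 10 h. The groups overlapped at + 4 h and + 7 h, and at + 10 h the 2 p38-MAPKi libraries were below the controls, with an effect of -0.21 (SE 0.07, adjusted p = 0.152 in limma). Tcof1 measured 26.9 and 31.9 RPKM at + 4 h, 27.8 and 42.2 at + 7 h, and 35.8 and 37.6 at + 10 h with DMSO. Under p38-MAPKi the libraries gave 35.1 and 33.4 RPKM at + 4 h, 23.2 and 27.5 at + 7 h, and 32.4 and 30.0 at + 10 h. Its p38-MAPKi libraries were above both controls at + 4 h (0.22) and below them at + 7 h (-0.44) and + 10 h (-0.23), with adjusted p of 0.766, 0.237, and 0.157 in limma. Over the 8 genes, 7 effects were below 0 at + 7 h with Ubtf the exception, a split that median centring turned to 4 and 4. At + 4 h 5 were above 0, and 3 with quantile normalization.

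Promoter sequence was available from RefSeq (GRCm38.p6, 250 bases before to 50 after the transcript start) for 43 of the 51 members. The stretches of Rrn3, Polr1c, and Mybbp1a are shown because they carry, in genes of this role, letters of the motifs counted further below. Each is written 5′ to 3′ with those letters in capitals, covering positions -100 to 5 from the start, or 29 to 50 for Mybbp1a. The Rrn3 stretch is chr16:13780599-13780703 on the plus strand, that of Polr1c chr17:46248041-46248145 on the minus strand, and that of Mybbp1a chr11:72441355-72441376 on the plus strand.
Rrn3: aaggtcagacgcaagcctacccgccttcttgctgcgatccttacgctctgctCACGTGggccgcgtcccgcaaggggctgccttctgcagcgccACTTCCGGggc
Polr1c: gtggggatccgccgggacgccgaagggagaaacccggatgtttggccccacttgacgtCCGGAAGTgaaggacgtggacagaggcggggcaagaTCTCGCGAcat
Mybbp1a: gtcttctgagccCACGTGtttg

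The genes of the 4 abundant nucleolar proteins were all lower without overlap with p38-MAPKi at + 10 h, as were 29.6% of all genes, and none was called. Npm1 (chr11:33152287-33163206, minus strand) measured 478 and 494 RPKM at + 4 h, 455 and 439 at + 7 h, and 407 and 369 at + 10 h with DMSO. After inhibition its level was 431 and 579 RPKM at + 4 h, 532 and 541 at + 7 h, and 319 and 322 at + 10 h. Its p38-MAPKi libraries were above both controls at + 7 h with an effect of 0.26 (SE 0.18, adjusted p = 0.357 in limma), and below both at + 10 h with -0.27 (SE 0.07, adjusted p = 0.106 in limma), a value of -0.15 with quantile normalization. Ncl (nucleolin, which binds the precursor rRNA), Gnl3 (nucleostemin, a GTPase of proliferating cells), and Ddx21 (a helicase) had + 10 h effects of -0.21, -0.25, and -0.05, each without overlap, and with quantile normalization 3 of the 4 genes were below 0. Gnl3 and the helicase gene Ddx10 were the members below the control without overlap at all 3 times, as were 4.29% of all genes, and the common effect of Gnl3 was -0.21 (SE 0.07, adjusted p = 0.123 in limma).

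In the box H/ACA snoRNP genes every effect was above 0 at + 4 h and + 7 h. The complex consists of dyskerin (Dkc1, the pseudouridine synthase), Nhp2, Gar1, and Nop10. All 4 effects were above 0 at + 4 h, with a median of 0.22, and at + 7 h, with a median of 0.475, and 3 of 4 were below 0 at + 10 h (2 with quantile normalization). At + 7 h, 1 of the 4 was below 0 once the trend of values on transcript length was removed, and the median was then 0.185. All 4 stayed above 0 at both times with median centring, quantile normalization, and voom. In the fits as described none was called, and voom called Nhp2 and Dkc1 at + 7 h.

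Nhp2 (chr11:51619735-51623714, plus strand) measured 271 and 275 RPKM at + 4 h, 309 and 268 at + 7 h, and 235 and 233 at + 10 h with DMSO. The p38-MAPKi libraries held 313 and 454 RPKM at + 4 h, 462 and 475 at + 7 h, and 192 and 227 at + 10 h. Both p38-MAPKi libraries were above both controls at + 4 h and + 7 h, and below them at + 10 h. The effects were 0.46 (SE 0.21, adjusted p = 0.431 in limma), 0.70 (SE 0.18, adjusted p = 0.0614 in limma), and -0.17 (SE 0.09, adjusted p = 0.346 in limma). The + 7 h value was 1.63 times the control, the highest of a member at any time. It was called with at least 10 RPKM (adjusted p = 0.0298 in limma), a replicate block (0.013), 1 fit of all 12 libraries (0.017), and voom (0.0122), and without DMSO replicate 1 at + 7 h (0.0394). It was 0.26 with quantile normalization and 0.31 with the length trend removed. At + 4 h the effect was called without p38-MAPKi replicate 1 (0.73, adjusted p = 0.00516 in limma), and without replicate 2 it was 0.19 (adjusted p = 0.998 in limma).

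Dkc1 (chrX:75095854-75109777, plus strand) measured 51.5 and 48.6 RPKM at + 4 h, 57.5 and 52.0 at + 7 h, and 52.6 and 56.7 at + 10 h with DMSO. With p38-MAPKi it measured 53.8 and 61.6 RPKM at + 4 h, 81.4 and 86.6 at + 7 h, and 59.9 and 62.6 at + 10 h. It was above the control without overlap at all 3 times, as was Ubtf among the 51 genes and 3.61% of all genes. The effects were 0.20 (SE 0.20, adjusted p = 0.785 in limma), 0.62 (SE 0.17, adjusted p = 0.0653 in limma), and 0.16 (SE 0.07, adjusted p = 0.254 in limma), and the common effect 0.33 (SE 0.09, adjusted p = 0.0647 in limma). The + 7 h effect was called with at least 10 RPKM (adjusted p = 0.032 in limma), a replicate block (0.022), 1 fit of all 12 libraries (0.00999), and voom (0.0172). The common effect was called without p38-MAPKi replicate 1 at + 4 h (0.37, adjusted p = 0.043 in limma). Gar1 measured 57.2 and 55.0 RPKM at + 4 h, 59.99 and 58.4 at + 7 h, and 53.8 and 49.6 at + 10 h with DMSO. Under p38-MAPKi the libraries gave 57.3 and 73.1 RPKM at + 4 h, 69.6 and 79.7 at + 7 h, and 46.5 and 51.5 at + 10 h. It was above both controls at + 4 h and + 7 h and overlapped them at + 10 h, with effects of 0.21, 0.33, and -0.08. Nop10, the smallest protein of the complex, had 0.24, 0.30, and -0.06, without overlap at + 4 h.

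The promoters of Nhp2 and Gar1 are shown because both hold the core letters of an ETS site close to the RefSeq start. That start matched the deposited one in Gar1. In Nhp2 it lay 38 bases inside the deposited gene, so the site of Nhp2 fell within that gene. The Nhp2 stretch is chr11:51619673-51619777 on the plus strand, and the Gar1 stretch chr3:129831392-129831496 on the minus strand, each from position -100 to 5. Capitals mark CCGGAAGT or its reverse complement, at position -23 in Nhp2 and -44 in Gar1.
Nhp2: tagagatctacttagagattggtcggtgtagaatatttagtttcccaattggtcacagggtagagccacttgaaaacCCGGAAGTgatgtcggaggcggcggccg
Gar1: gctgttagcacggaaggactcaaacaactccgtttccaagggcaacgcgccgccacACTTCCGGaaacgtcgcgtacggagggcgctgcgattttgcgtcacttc

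The 3 box C/D genes divided. Fibrillarin (Fbl, the methyltransferase) had effects of 0.25, 0.36, and -0.01, and Nop58 0.27, 0.28, and 0.02, both above the control without overlap at + 7 h. Their partner Nop56 measured 42.8 and 49.0 RPKM at + 4 h, 47.8 and 53.3 at + 7 h, and 52.3 and 50.2 at + 10 h with DMSO. After inhibition its level was 42.8 and 39.8 RPKM at + 4 h, 31.9 and 37.9 at + 7 h, and 50.0 and 51.5 at + 10 h. It was below the control without overlap at + 4 h (-0.15), and at + 7 h with -0.54 (SE 0.18, adjusted p = 0.0965 in limma), and overlapped it at + 10 h (-0.01). The split of 2 genes above 0 and 1 below at + 4 h and + 7 h was also found with median centring, quantile normalization, voom, and the length trend removed. At + 10 h it was 1 and 2, and quantile normalization and voom put all 3 above 0.

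The SSU processome and 40S assembly factors formed the largest role, with 21 genes. At + 4 h 11 were above 0 and 10 below, at + 7 h 6 and 15, and at + 10 h 4 and 17, with medians of 0.05, -0.19, and -0.10; median centring gave 11 above and 10 below at + 7 h, and quantile normalization 5 and 16 at + 4 h. At + 10 h, 12 of the 21 were lower without overlap, beside 29.6% of all genes, and 2, Nat10 and Tsr1, were higher, beside 22.6%. Heatr1 (UTP10 of the complex that starts the processome on nascent rRNA) measured 14.8 and 15.1 RPKM at + 4 h, 13.6 and 20.3 at + 7 h, and 16.1 and 16.5 at + 10 h with DMSO. The p38-MAPKi libraries held 16.2 and 12.7 RPKM at + 4 h, 10.6 and 11.69 at + 7 h, and 15.9 and 15.02 at + 10 h. Its + 7 h effect of -0.58 (SE 0.23, adjusted p = 0.142 in limma) was the lowest in this role, and the groups overlapped at + 4 h (-0.06). The + 7 h effect was -0.29 without DMSO replicate 2 (adjusted p = 0.723 in limma), -0.31 with the length trend removed, and -0.38 with median centring, and a single fit over 12 libraries called it (adjusted p = 0.0446). Of the other early components, Utp15 had -0.28, -0.33, and -0.06 at the 3 times, Wdr43 -0.03, -0.24, and -0.18, Wdr75 -0.13, -0.19, and -0.22, and Nol11 0.05, -0.11, and -0.02.

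Utp15 had the lowest effect at + 4 h, -0.28 (SE 0.22, adjusted p = 0.731 in limma). It measured 13.8 and 14.5 RPKM at + 4 h, 13.1 and 15.5 at + 7 h, and 13.5 and 14.5 at + 10 h with DMSO. With p38-MAPKi it measured 12.4 and 10.9 RPKM at + 4 h, 10.4 and 12.4 at + 7 h, and 13.5 and 13.4 at + 10 h, below both controls at + 4 h and + 7 h. Ddx10, the next at + 4 h, measured 27.7 and 30.7 RPKM at + 4 h, 30.4 and 30.8 at + 7 h, and 29 and 28.7 at + 10 h with DMSO. Under p38-MAPKi the libraries gave 23.8 and 26.6 RPKM at + 4 h, 24.3 and 22.1 at + 7 h, and 26.4 and 27.4 at + 10 h. It was lower without overlap at every time, and its effects of -0.21, -0.40, and -0.10 had adjusted p of 0.781, 0.167, and 0.444 in limma.

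Bms1, a GTPase of the processome, measured 33.0 and 39.4 RPKM at + 4 h, 37.8 and 42.4 at + 7 h, and 40.3 and 37.8 at + 10 h with DMSO. After inhibition its level was 35.0 and 34.0 RPKM at + 4 h, 41.6 and 38.4 at + 7 h, and 32.3 and 33.2 at + 10 h. The groups overlapped at + 4 h and + 7 h and were apart at + 10 h, by -0.25 (SE 0.07, adjusted p = 0.125 in limma). Nat10, which acetylates cytidines of 18S rRNA, measured 14.97 and 17.6 RPKM at + 4 h, 15.4 and 20.0 at + 7 h, and 16.2 and 16.5 at + 10 h with DMSO. The p38-MAPKi libraries held 18.7 and 18.5 RPKM at + 4 h, 11.2 and 16.0 at + 7 h, and 18.9 and 18.3 at + 10 h. It was above both controls at + 4 h (0.20), and at + 10 h with 0.18 (SE 0.07, adjusted p = 0.232 in limma), and the groups overlapped at + 7 h (-0.40), where replicate 1 with p38-MAPKi was lowest.

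A further subset of this role was higher at + 7 h and lower at + 10 h. Imp3, of the trio that joins U3 snoRNA to the precursor, had 0.44 at + 7 h and -0.18 at + 10 h, Emg1, a methyltransferase of 18S rRNA, 0.35 and -0.23, and Dcaf13 0.24 and -0.20, all without overlap at both times. The other 2 of the U3 trio behaved otherwise: Imp4 had 0.04 and -0.10, with overlap, and Mphosph10 -0.49 and -0.25, both lower without overlap. Of the remaining genes, Rrp9 (0.15 at + 7 h), Tsr1 (0.11), Nop14 (-0.01), and Noc4l (-0.31) overlapped the control there, and Rrp12 (-0.26), Utp3 (-0.07), Utp20 (-0.38), and Nol6 (-0.51) were below it. In value the + 10 h effects of these 8 genes ran from -0.18 (Nop14) to 0.10 (Tsr1).

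Among the 11 genes of 60S assembly, 7 effects were above 0 at + 4 h, 6 at + 7 h (8 with median centring), and 2 at + 10 h. Nop16, a nucleolar 60S factor, measured 34.3 and 36.6 RPKM at + 4 h, 38.8 and 36.02 at + 7 h, and 38.2 and 34.3 at + 10 h with DMSO. With p38-MAPKi it measured 44.9 and 56.5 RPKM at + 4 h, 53.1 and 48.5 at + 7 h, and 32.3 and 36.8 at + 10 h. Both p38-MAPKi libraries were above the controls at + 4 h, with the highest effect of a member at that time, 0.51 (SE 0.20, adjusted p = 0.293 in limma). They were also above them at + 7 h, with 0.44 (SE 0.17, adjusted p = 0.132 in limma), and the groups overlapped at + 10 h (-0.07). The helicase gene Ddx18 measured 31.6 and 35.6 RPKM at + 4 h, 33.6 and 38.2 at + 7 h, and 31.6 and 32.1 at + 10 h with DMSO. Under p38-MAPKi the libraries gave 34.3 and 42.2 RPKM at + 4 h, 54.2 and 44.7 at + 7 h, and 31.8 and 27.8 at + 10 h. Only at + 7 h were its groups apart, by 0.46 (SE 0.18, adjusted p = 0.144 in limma).

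Ebna1bp2, a nucleolar factor of this pathway, had 0.34 at + 7 h and -0.16 at + 10 h, without overlap at both times. Of the PeBoW complex, which is needed for cutting between the large subunit RNAs, Pes1 had effects of 0.23, 0.19, and 0.02, Bop1 0.15, -0.31, and -0.16, and Wdr12 0.18, 0.04, and 0.08. Wdr12 measured 4.11 and 4.80 RPKM at + 4 h, 4.51 and 4.93 at + 7 h, and 3.98 and 4.48 at + 10 h with DMSO. After inhibition its level was 4.59 and 5.54 RPKM at + 4 h, 4.49 and 5.21 at + 7 h, and 4.33 and 4.597 at + 10 h, and the groups overlapped at every time. The effects at the 3 times were -0.06, -0.37, and -0.15 for Nop2 (a methyltransferase of 28S rRNA), -0.04, 0.00, and -0.17 for Rrs1, and 0.19, -0.03, and -0.12 for Rrp1. Noc2l had -0.02, -0.09, and -0.13, and Noc3l -0.10, -0.31, and -0.01.

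DMSO replicate 1 at + 4 h and p38-MAPKi replicate 1 at + 7 h, the libraries that stood apart, were left out in turn for the largest effects. Without the first, the + 4 h effects were 0.355 for Ubtf, 0.46 for Nop16, 0.45 for Nhp2, -0.31 for Utp15, -0.29 for Ddx10, and -0.25 for Nop56, none of them called by limma. Nop56, at -0.15 with all 4 libraries, was -0.055 without DMSO replicate 2 and -0.10 without p38-MAPKi replicate 2. Ddx10 was -0.14 without DMSO replicate 2 and -0.13 without p38-MAPKi replicate 1. Without the second, beside the values of Polr1a and Mybbp1a given above, the + 7 h effects were 0.72 for Nhp2, 0.66 for Dkc1, 0.32 for Ddx18, and -0.505 for Heatr1, none of them called either.

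The next comparison asked whether the p38-MAPKi effect differed between times. Across the 51 genes, 7 effects were above 0 at all 3 times, 17 below 0 at all 3, and 13 above 0 at + 4 h and + 7 h but below 0 at + 10 h. These patterns were not counted over all tested genes, of which 60%, 40.1%, and 45.7% were above 0 at the 3 times. For 6 genes (Npm1, Nhp2, Emg1, Imp3, Dcaf13, and Ebna1bp2) the p38-MAPKi libraries were above both controls at + 7 h and below both at + 10 h, as in 6.15% of all genes, and for 0 genes the reverse, as in 6.84%. In the test of the difference itself, 0 of 51 members were called between + 4 h and + 7 h, where 0.00884% of all tested genes were, and 0 of 51 between + 7 h and + 10 h, where 0.00877% were. At an unadjusted p under 0.05 the counts were 1 (all genes, 6.83%) and 13 (26.3%), and with voom 0 and 2 (Nhp2 and Npm1). Nhp2 was nearest to the threshold, its effect at + 10 h differing from that at + 7 h by -0.87 ± 0.17 (SE, n = 8 libraries, limma, adjusted p = 0.069), followed by Npm1 at -0.54 (adjusted p = 0.0824) and Emg1 at -0.58 (adjusted p = 0.0882). Leaving out p38-MAPKi replicate 2 or DMSO replicate 1 at + 7 h let some members pass the threshold between + 7 h and + 10 h. How many of all genes passed in those fits is not given. The split between values above and below 0 for + 4 h to + 7 h, 16 and 35, turned to 36 and 15 with median centring, and that for + 7 h to + 10 h, 22 and 29, to 15 and 36 with median centring and 31 and 20 with quantile normalization.

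Effects also went with the length of the transcript. The Spearman correlation of effect and length over the 51 genes was -0.162 at + 4 h, -0.387 at + 7 h, and 0.396 at + 10 h, beside -0.365, -0.461, and 0.0607 over all tested genes. These correlations are across genes, which share the libraries and are not independent. The 8 members under 2000 bases had a median effect of 0.31 at + 7 h and the 16 of 5000 bases or more one of -0.35, and the same medians over all tested genes were 0.33 and -0.40. Nhp2, with 1146 bases, and Polr1a, with 11871, thus lay on the side of their length class, whereas Ubtf, with 6552, was on the other. With the trend removed, the + 7 h effects were -0.295 for Polr1a, -0.45 for Mybbp1a, 0.31 for Nhp2, and 0.66 for Dkc1, and the common effect of Ubtf was 0.51.

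**Figure D4:**
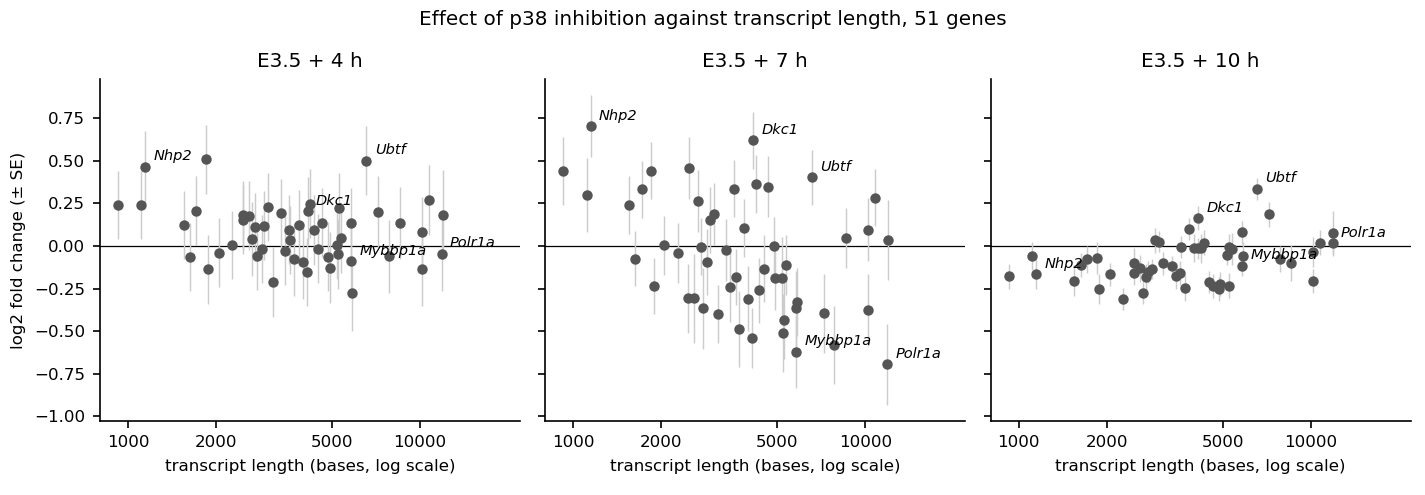
Log2 fold change of p38-MAPKi against DMSO (vertical axis, with the SE) against transcript length in bases (horizontal axis, log scale) for the 51 genes at each time. Values decline with length at + 7 h (Spearman correlation -0.387, across genes), and the 8 members under 2000 bases have a median of 0.31 there.

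In the control, the question was how the levels differed as the blastocyst matured. From + 4 h to + 7 h limma called 0 of 51 members beside 0.492% of all tested genes, from + 7 h to + 10 h 0 of 51 beside 0.0552%, and from + 4 h to + 10 h 0 of 51 beside 0.471%. The counts at an unadjusted p under 0.05 were 0 (all genes, 4.79%), 0 (3.79%), and 3 (15.2%), with Tcof1 higher and Npm1 and Nhp2 lower in the last, and with voom 0, 0, and 2 (Npm1 and Nhp2, both lower). From + 7 h to + 10 h, 16 members were above 0 and 35 below, and 15 (29.4%) were lower without overlap, beside 12.4% of all genes, and 2 (3.9%) higher, beside 18.3%. From + 4 h to + 10 h, 28 were above 0 and 23 below, 12 (23.5%) higher without overlap, beside 42.3% of all genes, and 6 (11.8%) lower, beside 8.06%. The median of all genes was 0.14 in this last comparison and the members' was 0.03. With median centring, which moved the median of all genes to 0, 9 members were above 0 and 42 below, and without DMSO replicate 1 at + 4 h, 17 and 34. From + 4 h to + 7 h, 44 were above 0 and 7 below, which median centring turned to 16 and 35, quantile normalization to 20 and 31, and leaving out DMSO replicate 1 at + 4 h to 25 and 26. Without DMSO replicate 2 at + 7 h, the + 7 h to + 10 h split was 29 and 22, and with median centring 8 and 43.

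The largest changes in value from + 4 h to + 10 h with DMSO, none of them called, were Tcof1 at 0.32 (SE 0.12, adjusted p = 0.264 in limma), Ubtf at 0.23 (SE 0.12, adjusted p = 0.388 in limma), and Nol6 at 0.21 (SE 0.13, adjusted p = 0.456 in limma) on the higher side. On the lower side they were Npm1 at -0.33 (SE 0.10, adjusted p = 0.178 in limma), Nhp2 at -0.22 (SE 0.10, adjusted p = 0.307 in limma), and Ebna1bp2 at -0.17 (SE 0.11, adjusted p = 0.483 in limma). Nol6, another processome protein, measured 20.7 and 25.2 RPKM at + 4 h, 21.1 and 32.1 at + 7 h, and 25.6 and 27.4 at + 10 h with DMSO and, with p38-MAPKi, 25.7 and 19.0 RPKM at + 4 h, 16.9 and 19.8 at + 7 h, and 26.6 and 26.2 at + 10 h. Ebna1bp2 measured 57.0 and 60.2 RPKM at + 4 h, 64.7 and 57.6 at + 7 h, and 54.1 and 50.3 at + 10 h with DMSO and, with p38-MAPKi, 54.2 and 72.3 RPKM at + 4 h, 76.4 and 77.7 at + 7 h, and 45.8 and 47.9 at + 10 h. Without DMSO replicate 1 at + 4 h, the library that stood apart, Tcof1 was 0.20, Ubtf 0.085, and Nol6 0.07, none of them called. Without DMSO replicate 2 at + 4 h, Tcof1 (0.45) and Ubtf (0.37) were called and Nol6 was 0.35. With median centring, Tcof1 was 0.19, Ubtf 0.09, Nol6 0.08, Nhp2 -0.36, and Ebna1bp2 -0.30. Leaving out DMSO replicate 1 at + 7 h made 1 member (Ddx21, lower) called from + 7 h to + 10 h. No alternative turned the sign of these 6 changes. In all 6 the groups did not overlap, so leaving out a library could not turn it.

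Another 102 genes of the pathway, listed by function, were examined as a wider frame. Over all times 2 of the 102 were called, both higher, Polr1e and Rrp36, where 2.67% of all tested genes were called. At the single times the counts were 0, 1 (Baz2a, lower at + 7 h), and 0, beside 0.909%, 2.13%, and 0.803% of all genes. Polr1e, a polymerase I subunit that helps initiation, measured 5.10 and 5.28 RPKM with DMSO and 7.86 and 7.68 with p38-MAPKi at + 4 h. At + 7 h it was 5.66 and 6.48 with DMSO and 6.99 and 8.76 with p38-MAPKi, and at + 10 h 5.61 and 5.29 and 6.78 and 7.07. Its common effect was 0.43 (SE 0.10, adjusted p = 0.0345 in limma). Like Ubtf, it was above the control without overlap at each time. Rrp36, a processome component, had a common effect of 0.43 (SE 0.09, adjusted p = 0.0295 in limma) and was also apart at each time. Baz2a, whose product TIP5 silences rRNA gene copies, measured 31.6 and 42.4 RPKM with DMSO and 15.6 and 18.2 with p38-MAPKi at + 7 h, an effect of -1.12 (SE 0.20, adjusted p = 0.0461 in limma), and its groups overlapped at + 4 h and + 10 h. In the DMSO comparisons between times and in the differences of the effect 0 of the 102 were called, beside the shares of all genes given above. At an unadjusted p under 0.05, 4 were higher and 1 lower at + 4 h (all genes, 6.39% and 3.03%). The counts were 14 and 11 at + 7 h (10.7% and 17.7%) and 2 and 15 at + 10 h (8.26% and 11.6%). At + 10 h, 65 of the 102 were below 0 and 36.3% above, beside 45.7% of all genes above 0.

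A set of 4 motifs known from promoters of growth genes was counted in the 43 promoters of 300 bases, on both strands, as a description of the sequences. The E-box CACGTG, a palindrome that MYC and related factors bind, was present in 9 (20.9%), beside 10.71% of the promoters of tested genes and 7.87% of all 19133 promoters. The ETS core CCGGAAGT, bound by GABPA, was present in 11 (25.6%), beside 9.48% and 5.10%. The BANP motif TCTCGCGA was present in 4 (9.3%), beside 2.70% and 1.41%, and the palindromic motif of NRF1 in 0, beside 2.27% and 1.25%. No motif overlapped another in the 43 windows. Rrn3 held CACGTG at -215 and -48 and the ETS core at -6, Polr1c the ETS core at -42 and the BANP motif at -6, and Mybbp1a CACGTG at 41, each position being the first base of the match counted from the start. Of the box H/ACA genes, Nhp2 and Gar1 held the ETS core and Dkc1 and Nop10 none of the 4 motifs. Ubtf, the member called over all times, held none of them in its window, whose start lay 150 bases from the deposited one. The gap was at most 100 bases in 39 of the 43 members. It was 348 for Heatr1, which held the ETS core, and largest, 1346, for Rrp9.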

How the data were processed

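Poly(A) RNA from 12 pools of whole mouse blastocysts was sequenced with a directional kit (2 libraries in each of 6 groups). The authors trimmed reads with Trim Galore 0.4.1, aligned them with HISAT2 2.0.5, and deposited 1 table of log2 RPKM per gene (GRCm38). Handling of multi-mapping reads and the strand setting are not given in the sources used here. The authors tested counts, whereas here limma 3.58.1 (R 4.3.3, trended moderation, no added pseudocount) was fitted to the deposited log2 values of genes that reached 1 RPKM in 2 or more libraries of a fit, with Benjamini-Hochberg adjustment over all genes tested and a threshold of 0.05. The deposited values had 0.9 of a read written for genes without one. Whole reads came out, within 0.02 of a read, for 34244 of 34245 genes, which gave the depths and a voom fit.

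In all 9 comparisons were made: p38-MAPKi against DMSO at 3 times, DMSO between times, differences of the effect between times, and the effect over all times with time as a term. p-values measure the spread between 2 pools a group, described as biological duplicates. In the test over all times they also take in the change of the effect between times. In the 4 h fit and in DMSO from 4 h to 7 h all genes shared the trended variance. Alternatives were no trend, median centring, quantile normalization, no filter, 10 RPKM, pseudocounts of 0.1 and 1, 1 fit over 12 libraries, a replicate block, removal of a length trend, voom, and leaving out each library. The scripts were tested on simulated data. The members, the wider list of pathway genes, and the markers were chosen with earlier results of these data known. Values in every library are given for Mybbp1a and Nolc1, for called members, for the 3 largest non-overlapping rises and falls at each time, for the 2 highest and 2 lowest levels, and for the 3 largest changes each way with DMSO; Gar1 and the called pathway genes were added after their values were seen. Lengths are merged exons from GENCODE, and promoters come from RefSeq.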

Additional observations from a re-analysis of the deposited data

How the results depend on the processing

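At + 4 h, 0 members were called, and 1 (Ubtf) with the length trend removed, with 0 to 1 when a library was left out (1, Nhp2, without p38-MAPKi replicate 1). At + 7 h, 0 became 2 with at least 10 RPKM and 2 with voom (Nhp2 and Dkc1 in both), 5 with the replicate block, 10 with 1 fit over 12 libraries, and 0 to 9 when a library was left out (9 without p38-MAPKi replicate 2, 1 without DMSO replicate 1). At + 10 h, 0 became 1, Ubtf each time, with quantile normalization, at least 10 RPKM, the replicate block, the length trend removed, and voom. For DMSO from + 7 h to + 10 h the count was 0 to 1 when a library was left out, and from + 4 h to + 10 h 0 to 2, and 2 with voom. The difference of the effect between + 7 h and + 10 h gave 1 with at least 10 RPKM, 1 with the replicate block (Nhp2 in both), 2 with voom, and 0 to 9 when a library was left out. Over all times, 1 became 2 (Ubtf higher, Gnl3 lower) with quantile normalization and with the length trend removed, and 0 to 2 when a library was left out. The cause of these changes was not tested. Shares of all tested genes called under each alternative are not given, here or in the sections above. The counts under the alternatives thus cannot be read as a result about the members. Of 431 alternatives over 28 named values, 396 stayed on their side of the threshold in the same direction, 33 passed it, 2 no longer did, and 0 turned direction. Most of these values were chosen for groups that did not overlap, so leaving out a library could not turn them. No trend, no filter, 10 RPKM, 1 fit, and the block leave the effect itself unchanged. The lack of turned directions was thus in large part fixed in advance.

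Whether same-numbered libraries belong together is not given in the sources used here. Their deviations correlated by -0.012, 0.162, and 0.167 at 4, 7, and 10 h, and the block changed the counts given above and no other. With 2 pools a group, the median SE of a member was 0.202, 0.183, and 0.0725 on the log2 scale at the 3 times. Leaving out 1 library leaves a group with 1, which is assumed to vary like the other group.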

Other observations

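The locus Gm42418, chosen after its values were seen, overlaps sequence related to 18S rRNA. With DMSO it measured 25350 and 3768 RPKM at + 4 h, 3238 and 2051 at + 7 h, and 2606 and 2004 at + 10 h. With p38-MAPKi it measured 3143 and 4115 RPKM at + 4 h, 7353 and 2706 at + 7 h, and 2135 and 2290 at + 10 h. The highest values, 25350 and 7353 RPKM, belonged to the libraries with the lowest medians of log2 RPKM, 2.946 and 2.896. In poly(A) libraries such reads do not measure the amount of rRNA in the embryos.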
